A study of Mus musculus with 12 samples.

Results

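The 2476 regions described here are those of chromosome 16 that start before 96 Mb, out of 68291 regions of trimethylated lysine 9 of histone H3 (H3K9me3) in mouse embryonic stem cells and out of 2539 on that chromosome. They were chosen by position after the deposited log2 fold changes of the chromosome had been seen to be mostly positive, so every value of that comparison given below is a description and not a test. The study compared Tex19.1+/- and Tex19.1-/- cells of the 129/Ola background, derived from the E14Tg2a line and used at passages 12 to 20. Each genotype has 3 libraries of immunoprecipitated DNA and 3 of input DNA. Both genotypes carry at least 1 disrupted Tex19.1 allele, and no wild-type cells were analysed here. The number of clones per genotype is not given in the sources used here, nor whether the replicate libraries are separate cultures, so the authors' p-values may measure only technical spread. In 6 of the 12 libraries the genotype field contradicts the title, and groups were taken from the titles.

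H3K9me3 is written by methyltransferases such as SETDB1 and the SUV39H enzymes and is bound by HP1 proteins, which compact chromatin. In embryonic stem cells it covers retroviral repeats, clusters of zinc finger genes, imprinted control regions and the satellite repeats beside centromeres. Mouse chromosome 16 is acrocentric: the centromere lies at its start. Its far part carries a long run of genes whose human counterparts lie on chromosome 21, among them App, Runx1 and Kcnj6, and its near part the counterpart of the human 22q11 region.

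Sequences of promoters that lie wholly inside one of these regions are shown first, because the mark over a gene's start is commonly linked with silencing. Of 1050 promoter windows on this stretch in the RefSeq table (assembly GRCm38.p6, the assembly of mm10; 250 bases before to 50 after the start), 12 lay wholly inside a region, 7 of them of protein-coding genes. Below are 4 of the 12: Hmox2 and Csta2 are among the 6 whose regions had most signal, and Rpl39l and Kng2, added after their values were seen, lie in the regions of lowest FDR. They are the promoters of Rpl39l, a germline-enriched paralog of a ribosomal protein (chr16:10169978-10170277, plus strand), and Hmox2, the constitutive haem oxygenase (chr16:4741363-4741662, plus strand). There follow Csta2, a stefin that inhibits cysteine proteases (chr16:36221312-36221611, plus strand), and Kng2, a kininogen (chr16:23029052-23029351, minus strand). Each reads 5′ to 3′ along the gene, with every CG dinucleotide in capitals.
Rpl39l: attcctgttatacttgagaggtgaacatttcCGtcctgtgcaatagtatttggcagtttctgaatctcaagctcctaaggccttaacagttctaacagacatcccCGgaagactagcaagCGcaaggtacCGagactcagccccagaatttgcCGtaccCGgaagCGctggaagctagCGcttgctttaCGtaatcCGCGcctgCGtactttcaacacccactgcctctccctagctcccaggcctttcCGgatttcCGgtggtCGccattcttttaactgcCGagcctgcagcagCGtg
Hmox2: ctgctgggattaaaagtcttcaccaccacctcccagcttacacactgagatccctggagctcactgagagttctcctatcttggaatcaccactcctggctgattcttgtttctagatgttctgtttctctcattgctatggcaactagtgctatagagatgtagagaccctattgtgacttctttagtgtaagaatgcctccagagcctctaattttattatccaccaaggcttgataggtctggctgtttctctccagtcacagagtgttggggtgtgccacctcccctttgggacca
Csta2: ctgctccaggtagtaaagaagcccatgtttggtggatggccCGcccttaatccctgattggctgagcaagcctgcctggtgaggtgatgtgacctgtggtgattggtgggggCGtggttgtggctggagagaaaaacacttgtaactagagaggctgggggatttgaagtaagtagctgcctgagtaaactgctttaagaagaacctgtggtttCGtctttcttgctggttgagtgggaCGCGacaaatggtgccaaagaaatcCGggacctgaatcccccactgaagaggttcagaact
Kng2: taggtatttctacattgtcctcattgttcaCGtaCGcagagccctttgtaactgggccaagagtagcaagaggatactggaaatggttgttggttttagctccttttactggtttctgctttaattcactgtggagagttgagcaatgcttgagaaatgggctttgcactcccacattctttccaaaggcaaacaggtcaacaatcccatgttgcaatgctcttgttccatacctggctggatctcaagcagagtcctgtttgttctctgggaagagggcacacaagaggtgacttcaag

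The Rpl39l window held 17 CG dinucleotides, Csta2 6, Kng2 2 and Hmox2 0. The median was 3 over the 12 windows, against 7 over all 32851 windows of the table. The letters TGCCGC, read on both strands, are the core recognised by the zinc finger protein ZFP57; they were in 0 of the 12 windows and in 11.6% of all windows. All 4 regions around the printed promoters were positive in the authors' deposited table, as were 87.4% of all members. Rpl39l and Kng2 were picked on this comparison, so nothing is read from their sign. Of the 12 regions, only that at Gm30726 was negative (-0.13, derived standard error 0.34). The region over Rpl39l had a deposited log2 fold change of 0.71 (FDR 0.0477), with a standard error of 0.19 derived from the authors' p-value. The region over Kng2 had 0.60 (FDR 0.0659, derived standard error 0.16). The regions over Hmox2 and Csta2 had 0.28 (0.10) and 0.17 (0.11), with an FDR of 0.517 and 1. The region at Rpl39l was the only 1 of the 12 to be called, that is, to have a deposited FDR below 0.05. With 1 call on a stretch chosen on this comparison, nothing is read from it about promoters.

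The authors deposited 1 value per region for the whole comparison and no columns of single libraries, so no spread between replicates can be given. Errors are derived from the authors' p-values and cover what that test covered. The direction of the comparison is not given in the sources used here, so values are described by sign. Coordinates are those deposited, on chromosome 16 of mm10. Expression was not analysed here, so the labelled cell type could be looked at only through the mark. A region lay at 2 of 10 genes of pluripotent cells (Nanog and Esrrb) and at 3 of 6 genes of differentiated cells (Fn1, Thy1 and Col1a1), and 0 of these regions were called. On the stretch described here, 254 of 662 protein-coding genes had a region in them or within 5 kb. Of all 68291 regions 0.281% were called. The marker counts are too small to identify the cell type.

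Positive values ran along nearly the whole stretch. The median deposited log2 fold change was 0.32 (95% interval 0.31 to 0.34, from order statistics), against -0.03 for 59583 regions of the autosomes other than 11 and 16. Of the members, 2164 (87.4%) were positive and 312 were not. Set against the median of reference regions of like average log2 CPM (CPM is reads in a region scaled to library size), the members lay 0.35 higher, a ratio of 1.28. By that measure 87.8% (Wilson interval 86.4 to 89.0) lay above the reference, in intervals that treat neighbours as independent. The 17 reference chromosomes had medians from -0.08 (chromosome 8) to -0.0013 (chromosome 2), and none had over 54.1% of its regions above the reference. Chromosome 11, which is not part of the reference, was shifted too: its 3218 regions had a median of 0.28 (0.27 to 0.29), with 83.7% positive and 84.2% above the reference, and 34 positive calls and 1 negative. The difference between chromosomes 16 and 11 was not tested.

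The quartiles moved with the median. They lay at 0.14 and 0.56 on chromosome 16, a distance of 0.42, and the 17 reference chromosomes had distances of 0.39 to 0.44. The lower quartile of these members was therefore positive.

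**Figure D1:**
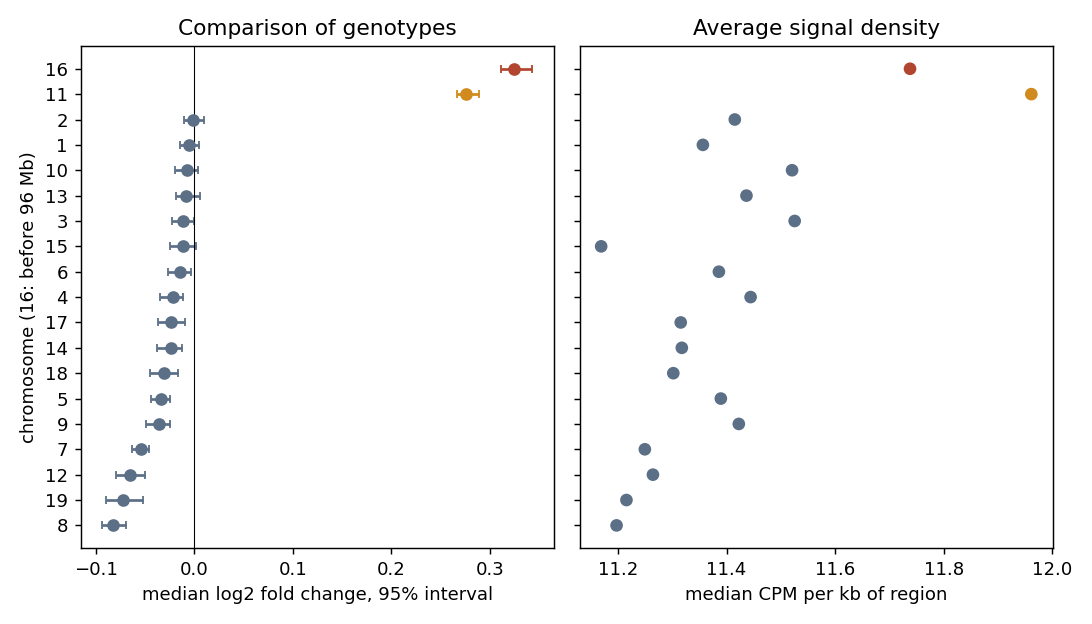
Each row is an autosome, with chromosome 16 before 96 Mb in red, chromosome 11 in orange and the 17 reference chromosomes in blue. The left panel plots the median deposited log2 fold change with its 95% interval and the right panel the median CPM per kb of region; chromosomes 16 (0.32 and 11.7) and 11 (0.28 and 12.0) lie to the right of the 17 others in both.

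In number, width and cover of regions, chromosome 16 lay within the range of the 17 reference chromosomes. It had 26.6 regions per Mb between its first and last region, inside the range of 21.3 to 31.3, and regions covered 3.27% of that span (range 2.48 to 4.06). The median width was 774 bp (725 to 809), and 4.16% of regions were at least 4000 bp wide (3.13 to 4.95). The median region carried 11.7 CPM per kb, above each of the 17 reference chromosomes (11.2 to 11.5) and below chromosome 11 (12.0). CPM is an average over the libraries of the comparison, so this density contains the difference between genotypes. These are single values per chromosome and were not tested. Regions lay mostly outside genes: 66.0% were between genes, 23.5% overlapped a protein-coding gene and 10.5% another gene, against 63.5%, 25.3% and 11.2% on the reference autosomes. Exons and introns were not analysed here.

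The shift was found between genes and inside them. The median was 0.31 over 1634 regions between genes, 0.36 over 582 in protein-coding genes and 0.38 over 260 in other genes. The reference values in the same order were -0.03, -0.02 and -0.02. Only 26 regions touched a promoter window. Of these 26, 24 were positive, with a median of 0.44 and a 95% interval of 0.18 to 0.61. Of the same 26, 2 were called (7.69%), against 1.55% of the members that touched none. On the reference autosomes the called shares were 1.82% and 0.161% in the same order. With 2 calls on a stretch chosen on this comparison, nothing is read from the member shares.

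In position order, each of the 20 bins of 5 Mb had a positive median. The first bin, which begins with the region at 3016463, had the lowest, 0.19 over 78 regions (95% interval 0.15 to 0.26). The bin from 75 to 80 Mb had the highest, 0.44 over 138 regions (0.37 to 0.49), and 94.2% of its regions were positive. Between 15 and 25 Mb, where the 22q11 counterpart, the immunoglobulin lambda genes and the kininogens lie, the medians were 0.28 and 0.27. From 25 to 30 Mb, at Fgf12, the median was 0.39. From 45 to 50 Mb, at the germline silencing factor Morc1, it was 0.40. From 70 to 95 Mb, at Robo1, Robo2, Nrip1, App and Runx1, it was between 0.35 and 0.44. The last bin, from 95 Mb on, had 0.27 over 43 regions (0.09 to 0.44).

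**Figure D2:**
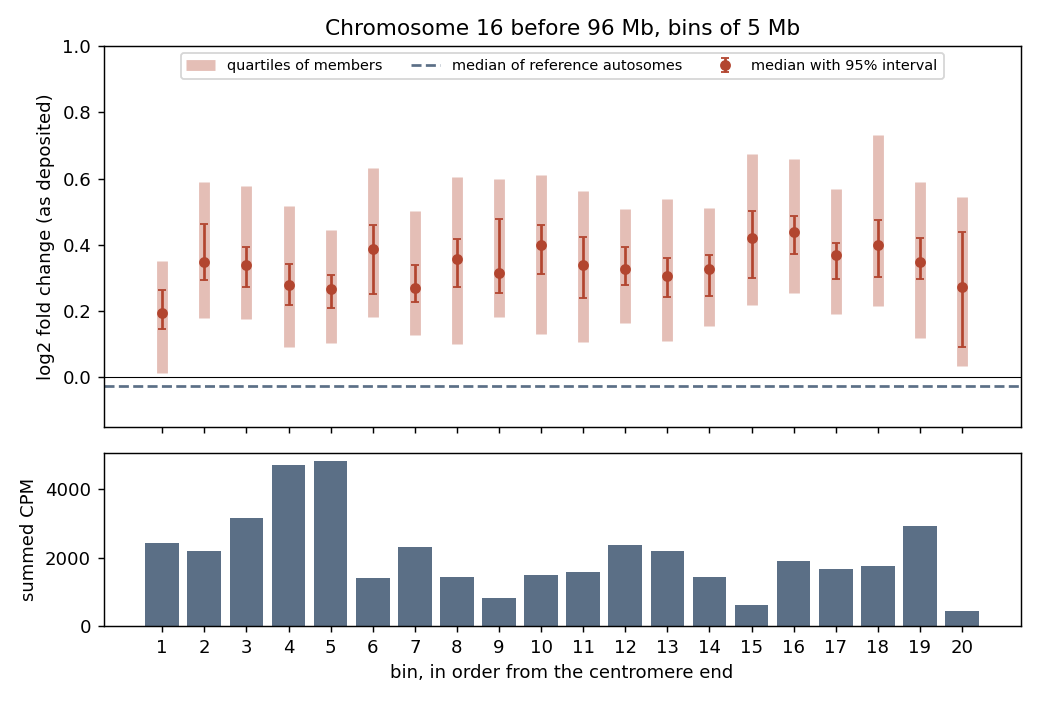
The upper panel plots, for each 5 Mb bin in order from the centromere, the median deposited log2 fold change with its 95% interval and the quartiles; the dashed line is the reference median of -0.03. The lower panel gives summed CPM per bin; medians run from 0.19 in the first bin to 0.44 in the sixteenth bin.

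Signal was uneven along the same axis. The bins from 15 to 20 and from 20 to 25 Mb held 4706 and 4808 summed CPM and had the highest median log2 CPM, 3.62 and 3.61. The bin from 70 to 75 Mb held 619 CPM. Their medians relative to regions of like signal were 0.31 and 0.29, and that of the bin from 70 to 75 Mb was 0.42. The last had a median log2 CPM of 2.84. Weak members lay further above the reference than strong ones, as given below, so this order does not separate position from signal.

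At a finer scale, 88 of 93 windows of 1 Mb had at least 8 regions, and the median of all 88 was positive. Relative to regions of like signal they ran from 0.19 (21 to 22 Mb, 55 regions) to 0.66 (85 to 86 Mb, 21 regions). Their quartiles were 0.30 and 0.42. The lowest window had a median log2 CPM of 3.90 and the highest 2.58, so position and signal are not separated here either. Of the 88 windows, 87 exceeded 0.2. Of 2086 windows with as many regions on the reference autosomes, 53 did. The lowest windows after the first were 31 to 32 Mb (0.20), 38 to 39 Mb (0.21) and 3 to 4 Mb (0.22). The window from 85 to 86 Mb holds part of App and all of Cyyr1 and Adamts1. The next highest were 75 to 76 Mb, which holds part of Robo2 (0.55), and 77 to 78 Mb (0.54).

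The start of the stretch went the other way. The first 10 regions, from 3016463 to 3235921, were all negative, with a median of -0.13 and values from -0.58 to -0.0033. The next region had 0.03, so the count of 10 ends where the sign changes and follows the values. The strongest of the 10 (3103631 to 3107273, 43.0 CPM) had a deposited value of -0.36 (unadjusted p 0.016, FDR 0.769, derived standard error 0.15). Of the next 10, which reach to 3403476, 9 were positive, with a median of 0.21. Negative values at the start were common elsewhere, where the count of 10 was not fitted to the values. Among the first 10 regions of the 17 reference chromosomes, the median number below 0 was 7. On 3 chromosomes that number was 10, and 10 chromosomes had a lower median than chromosome 16. At the limit of 96 Mb the change of sign came later than the limit itself. The last 3 members, before the proteasome assembly gene Psmg1, had deposited log2 fold changes of 0.67, 0.71 and 0.27 (derived standard errors 0.43, 0.44 and 0.20). The first 3 regions beyond had -0.14, 1.55 and 0.20 (0.28, 0.63 and 0.54). Split at 96.4 Mb, a point chosen after the values were seen, 4 of 11 regions were negative before it and 48 of 52 after it, with a median of -0.51.

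**Figure D3:**
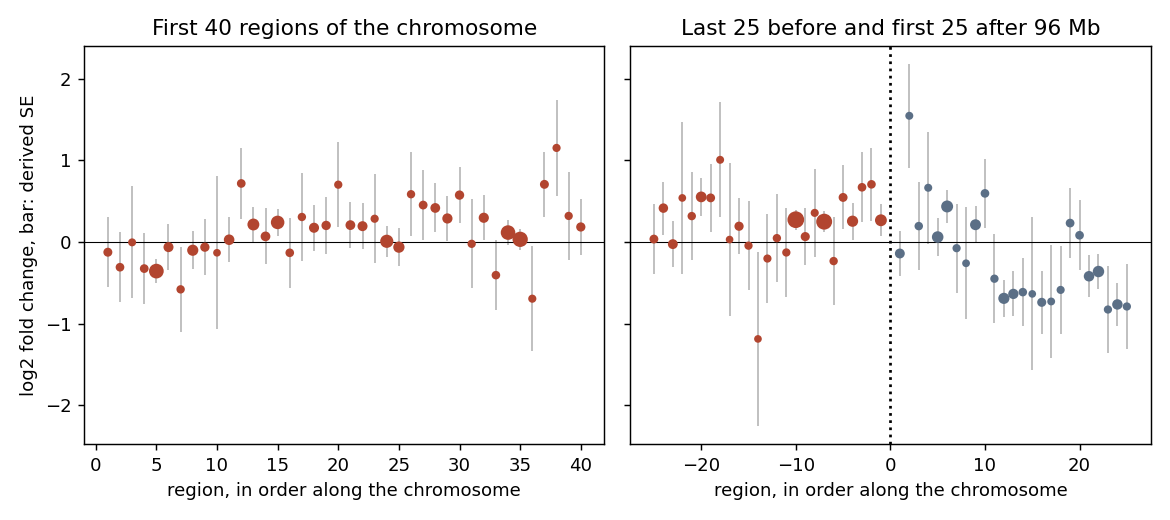
Points are single regions in order along the chromosome, with larger points for stronger regions and bars for the derived standard error. On the left the first 10 regions lie below 0; on the right, red points before and blue points after 96 Mb, values turn negative 11 regions beyond the limit.

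By signal, the members lost height as regions became stronger, and so did the reference, so that the distance between them changed little above a log2 CPM of 4. Below 2, the median was 0.55 over 275 members (95% interval 0.46 to 0.65). It was 0.40 at 2 to 3 (881 members), 0.33 at 3 to 4 (620) and 0.27 at 4 to 5 (398). At 5 to 6 it was 0.25 (201), at 6 to 7 0.23 (81) and at 7 or more 0.20 (20 members, 0.16 to 0.25). The reference medians fell from 0.04 in the weakest class to -0.10 in the strongest. The difference between the medians was 0.52 in the weakest class, 0.38 and 0.35 in the next, and 0.32, 0.32, 0.32 and 0.30 in the 4 classes from 4 upward. As ratios these last are 1.25, 1.25, 1.25 and 1.23.

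The share of positive members rose in the same order, from 81.5% in the weakest class to 97.0%, 98.8% and 100% in the 3 strongest. The derived standard error fell from 0.71 to 0.08, so weak members on the negative side carry large errors. The quartile distance of the members was close to that of the reference from 2 to 6 (0.26 and 0.26 at 4 to 5, 0.20 and 0.19 at 5 to 6). At 6 to 7 it was 0.21 against 0.15, at 7 or more 0.10 against 0.14, and below 2 0.78 against 0.87.

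**Figure D4:**
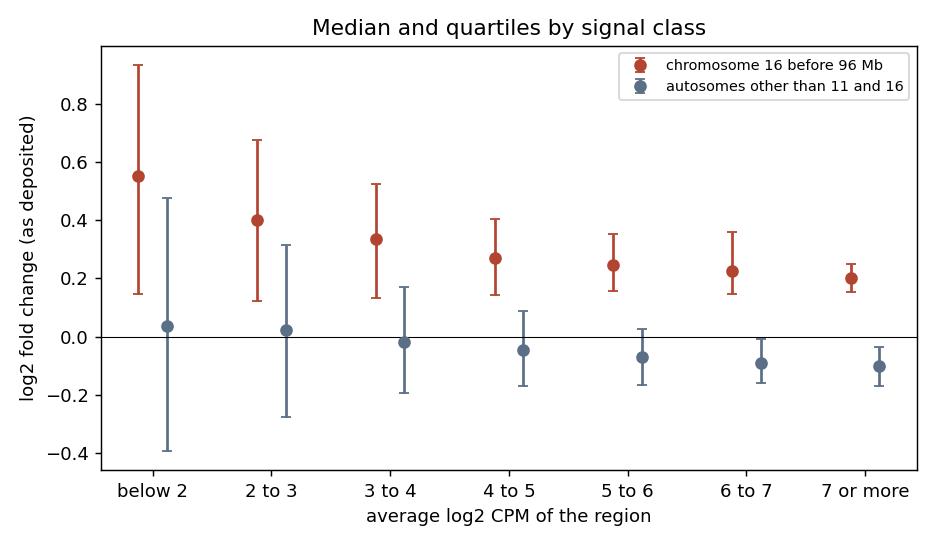
Points are medians and bars run between the quartiles of the deposited log2 fold change in 7 classes of average log2 CPM. Members (red) fall from 0.55 to 0.20 and reference autosomes (blue) from 0.04 to -0.10, with a distance of 0.30 to 0.32 in the 4 strongest classes.

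Width gave the same picture, since wide regions are strong ones. The median was 0.44 below 500 bp (548 members), 0.38 from 500 to 1000 bp (996) and 0.28 from 1000 to 2000 bp (562). It was 0.27 from 2000 to 4000 bp (267), 0.24 from 4000 to 8000 bp (88) and 0.19 at 8000 bp or more (15). Differences from reference regions of like width were 0.42 and 0.38 in the narrow classes and 0.29 to 0.32 from 1000 bp on. All 103 members of at least 4000 bp were positive. Within 1 class of signal the direction with width was not uniform: at a log2 CPM of 3 to 4 the difference was 0.38 for 500 to 1000 bp and 0.32 for 1000 to 2000 bp, while at 4 to 5 it was 0.31 for 1000 to 2000 bp and 0.36 for 2000 to 4000 bp.

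The widest and strongest members had small derived errors, which cover only what the authors' test covered. The widest region, 21813 bp with 407 CPM, lies between olfactory receptor genes and Mefv, the gene of familial Mediterranean fever (3641346 to 3663159). Its deposited log2 fold change was 0.33 (FDR 2.01e-08, derived standard error 0.05). A region beside Vpreb2, a surrogate light chain gene (17986934 to 18001509, 368 CPM), had only 0.11 (0.05, FDR 0.899). Near the splicing factor gene Tra2b (22272448 to 22284116, 314 CPM) the value was 0.15 (0.05, FDR 0.533). A region 347 bp from Atf7ip2, a relative of the gene of a SETDB1 partner (10180056 to 10192302, 269 CPM), had 0.19 (0.06, FDR 0.182).

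Among these broad regions the values thus ran from 0.11 to 0.37, with derived standard errors of 0.05 to 0.06. Whether they differ beyond error was not tested. The other 3 of the 5 widest regions were at 3795101 to 3808693 (0.18, derived standard error 0.06), at 4814795 to 4827439 (the highest, 0.37, with 0.06) and at 61323870 to 61336206 (0.14, 0.06). The strongest region of each 5 Mb bin was positive in all 20 bins, from 0.11 to 0.54; that value, at Hspbap1, is given below.

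Of the 2476 members, 40 (1.62%) were called by the authors' FDR, and all 40 were positive. Of all 68291 deposited regions, 0.192% were called positive and 0.0893% negative, and over the reference autosomes 0.094% and 0.0873%. Since the stretch was chosen on this comparison, nothing is read from the difference. At an unadjusted p below 0.05 in the authors' test there were 440 positive and 2 negative members. Of all 68291 regions 3239 had such a p, and of the 59583 on the reference autosomes 2190. Nothing is read from these counts either. Called values ran from 0.33 to 2.29 with a median of 0.56; 15 were below 0.5 and 8 reached 1. Calls lay mainly at wide regions, 31 of 40 at 2000 bp or more. The called share was 0.402% of members from 500 to 1000 bp, 4.49% from 2000 to 4000 bp and 19.3% from 4000 to 8000 bp. At 8000 bp or more it was 13.3%, or 2 of 15 members. On the reference autosomes the shares, which take both signs, were 0.00838%, 0.438%, 1.84% and 7.24% in the same order. Of the 27 reference calls at 8000 bp or more, 23 were negative. Of the 40 calls, 22 lay between genes, 11 in protein-coding genes and 7 in other genes, out of 1634, 582 and 260 members.

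**Figure D5:**
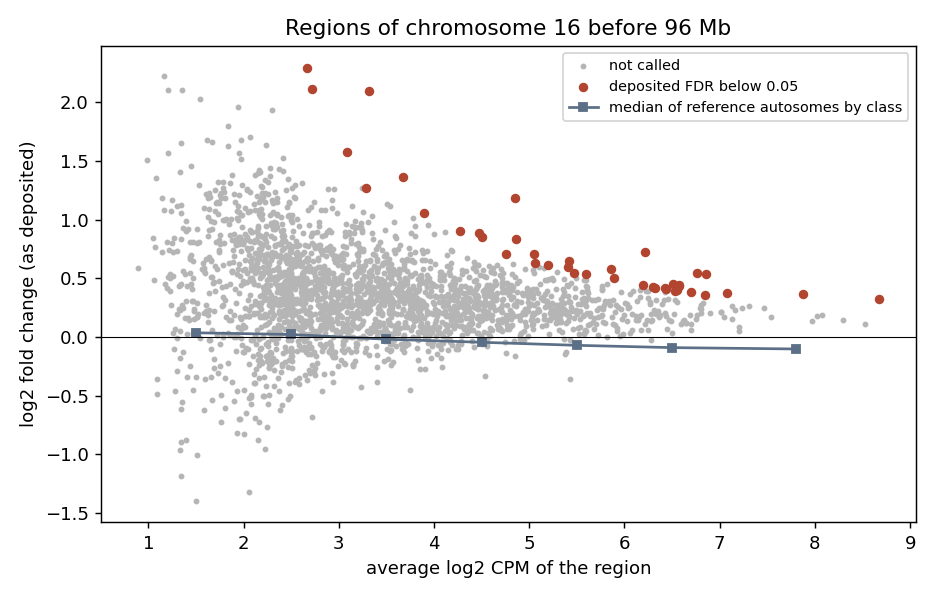
Each point is a region of chromosome 16 before 96 Mb, by average log2 CPM and deposited log2 fold change; the 40 called regions are red. The blue line is the reference median per signal class. Called values run from 2.29 to 0.33, the last at the strongest region.

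Since the call tests against 0 and the members share a raised median, each member was also set against the median of the members, in units of the error typical of its signal. Of the 40 calls, 16 lay less than 2 such errors above the other members and 9 more than 3. No further member exceeded 3, so these 9 make 0.363% of the members, against 0.321% of reference regions measured from their own chromosome's median. On the low side 3 members (0.121%) exceeded 3 errors, against 0.0806% of the reference. The spread of this quantity, as a robust SD, was 0.91 among the members and 0.90 in the reference.

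The 9 high members, singled out after their values were seen, form 7 places. A pair of regions lies 29882 and 22239 bp from Ercc4, which encodes the XPF endonuclease of DNA repair. In the authors' deposited table the weaker (13078670 to 13079484, 6.56 CPM) had 2.11 (FDR 0.00497, derived standard error 0.47). The stronger (13083477 to 13087127, 28.9 CPM) had 1.19 (FDR 6.09e-07, derived standard error 0.19). The next region toward the gene had 0.42 (derived standard error 0.22, FDR 1), near the level of the chromosome.

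A region in Marf1, a regulator of RNA in oocytes (14112459 to 14118243, 74.4 CPM), had a deposited value of 0.73 (FDR 1.71e-07, derived standard error 0.11). Hunk, a protein kinase gene (90431391 to 90436966, 109 CPM), had 0.54 (0.09, FDR 5.32e-06). Hspbap1, whose product binds a small heat shock protein (35817723 to 35823839, 116 CPM), also had 0.54 (0.09, FDR 2.47e-06). A region in the gene Gm29823 (70975713 to 70976596, 8.47 CPM) had 1.57 (0.37, FDR 0.0157). The remaining places are at Nrip1, a nuclear receptor corepressor, and beside the metalloproteinase gene Adamts1. Adjoining regions in Nrip1 had 2.10 and 1.36 (derived standard errors 0.35 and 0.29, FDR 8.31e-06 and 0.00257). A weak region 603 bp outside Adamts1 (85803716 to 85804636, 6.36 CPM) had 2.29 (0.47, FDR 0.00149). At Adamts1 a stronger region inside the gene (85797577 to 85801852, 48.5 CPM) had a deposited value of 0.54 (FDR 0.0356, derived standard error 0.14).

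Other called members of the largest changes were 102705 bp from Zpld1 (55120477 to 55121420), at 1.27 with an FDR of 0.0419, and 23354 bp from Nfkbiz, an inhibitor of NF-kappa-B (55786430 to 55788021), at 1.06 with an FDR of 0.0215. Both are deposited values, with derived standard errors of 0.33 and 0.26.

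The 3 low members were the region at 3103631 given above, one 336854 bp from Nsun3 (62394406 to 62395590; -0.33, derived standard error 0.20) and one 385897 bp from Cblb (51644931 to 51645333; -1.32, 0.59, at 4.15 CPM). Among the 302 members with a log2 CPM of 5 or more, 7 were not positive. Besides the first, they include a region at 15509673 to 15512704 (-0.15, derived standard error 0.16) and one 127 bp from Rpl39l (10175038 to 10178441; -0.13, 0.16). Another lies in Abat, the GABA transaminase gene (8558313 to 8560665; -0.02, 0.16). All of these had a deposited FDR of 0.769 or more.

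Some close neighbours had unlike deposited values. The places below were picked after their values were seen, and whether neighbours differ beyond error was not tested. Around Rpl39l, the 4 strongest regions from 10144560 on had deposited log2 fold changes of 0.41 (10144560 to 10151745), 0.71 (10168826 to 10171568), -0.13 and 0.19, with derived standard errors of 0.11, 0.19, 0.16 and 0.06. In Abat, 0.37 (8549318 to 8555671, derived standard error 0.08, FDR 0.00402) stood beside the value of -0.02. Beside Vpreb2, a called region at 0.83 (18010608 to 18012800, derived standard error 0.18, FDR 0.00339) lay beside the broad region at 0.11. Over all calls, 32 of 40 had uncalled members within 20 kb; these 90 had a median of 0.28, and 79 were positive.

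By gene, 254 of 662 protein-coding genes on the stretch had a region in the gene or within 5 kb of it, and 88 had at least 3. Of these 88, 85 had a positive median. The exceptions were Zbtb20, a transcription factor (-0.35 over 3 regions), Myh11, smooth muscle myosin (-0.22 over 3), and Igf2bp2, an RNA-binding protein (-0.10 over 3). These rest on weak regions, with 17.3, 12.9 and 16.5 CPM in all.

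Among the genes with most regions were several long ones. Snx29, a sorting nexin, had 22 regions with a median of 0.28, of which 17 were positive. Rbfox1, a splicing regulator, had 16 of 18 positive with a median of 0.38. Grin2a, an NMDA receptor subunit gene, had 8 of 13 positive (0.19). All 11 regions at Morc1 were positive, with a median of 0.54.

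A list mainly of axon guidance and cell adhesion genes had 60 regions at 11 of 14 genes, of which 55 were positive and 0 called. Fgf12, which is not of that class, gave 9 of the 60 regions. The median of the list was 0.44, with a 95% interval of 0.31 to 0.54, which holds the 0.32 of all members. All 14 regions at the ephrin receptor gene Epha6 were positive (0.07 to 1.22, median 0.45). The Slit receptor genes Robo1 and Robo2 had 6 of 6 each, with medians of 0.46 and 0.62, and Fgf12 had 9 of 9 (0.45). Lsamp had 8 of 10, with a median of 0.30. The neural adhesion gene Ncam2 had 3 of 3 (0.41), and the smallest p of the list was at Fgf12 (28223221 to 28225140; 0.70, derived standard error 0.23, FDR 0.335).

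Counterparts of human chromosome 21 genes had 103 regions at 29 of 76 genes, with a median of 0.39; 91 were positive and 5 were called, 2 each at Nrip1 and Adamts1 and 1 at Hunk. That is 4.85% of the list beside 1.62% of all members, with 4 of the 5 calls at 2 places, and nothing is read from it. App, the amyloid precursor gene, had 13 regions from -0.01 to 1.66, 12 of them positive, with a median of 0.66. Runx1, a transcription factor of blood formation, had 9 of 11 positive (median 0.58). Tiam1, a Rac exchange factor, had 13 of 13 (0.27) and Kcnj6, a potassium channel gene, 9 of 10 (0.38). The glutamate receptor gene Grik1 had 4 of 4 (0.86). Kcnj15 spanned -1.01 to 1.13 over 4 regions. The 3 genes with a median below 0 rested on 1 or 2 regions: Itsn1 (-0.01), Tmem50b (-0.10) and N6amt1 (-0.11).

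Counterparts of the 22q11 region had 8 regions at 6 of 36 genes, with 6 positive, 1 called and a median of 0.28. The 95% interval of that median was -0.22 to 0.88, which holds the 0.32 of all members. With 1 call, 12.5% of the list was called beside 1.62% of all members, and nothing is read from it. The call was in Arvcf, a catenin gene (18357827 to 18359758), with a deposited value of 0.88 (FDR 0.0133, derived standard error 0.21). The other region there had -0.22. The histone chaperone gene Hira had 0.28 and 0.32.

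Olfactory receptor genes had 27 regions at 18 of 45 genes, 22 positive and 0 called, with a median of 0.25. Stefins, inhibitors of cysteine proteases, had 12 regions at 4 of 7 genes, 11 positive, with a median of 0.37. Keratin associated proteins of hair had 6 of 6 positive (0.33), and immunoglobulin lambda genes 4 of 4 (0.26). Claudins had 1 region, at Cldn14 (0.17), and the protamine cluster of sperm chromatin had 0. No region of these 5 lists was called.

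Zinc finger genes were the only list with a negative median, -0.27 over 6 regions at 3 of 9 genes. Zfp263 had -0.50 (3749056 to 3749393, derived standard error 0.54). Zfp148 had -0.19 and 0.26, and Zbtb20 had values from -0.48 to 0.65. None had an unadjusted p below 0.05, the median region carried 5.12 CPM, and the 95% interval of the median was -0.50 to 0.65, which holds the chromosome's 0.32.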

How the data were processed

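H3K9me3 ChIP-seq of Tex19.1+/- and Tex19.1-/- embryonic stem cells was deposited as 1 table of the authors' comparison over 68291 regions. Per the submitters' processing notes, Bowtie2 2.2.6, HOMER 4.8, bedtools 2.25.0 and edgeR were used with mm10, with no role or order given. The log2 fold change, the average log2 CPM, the p-value and the FDR (an adjusted p-value) are those the authors deposited, per the file headers. The sources used here do not give the definition of regions, the use of input, the libraries that entered or the reference genotype. Read totals per library were not analysed here. CPM is relative within a library, so a uniform change of the mark would go unseen.

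The deposited FDR differed from a Benjamini-Hochberg adjustment of the p-values by at most 3.2e-05. A region was called at an FDR below 0.05. Derived standard errors are the absolute log2 fold change over the normal deviate of the 2-sided p, where that deviate was at least 1 (1295 of the 2476 members), and otherwise the median of regions in the same log2 CPM bin of 0.5. References of like signal used the same bins on the 17 autosomes other than 11 and 16. Intervals of medians come from binomial order statistics and those of shares are Wilson intervals, all 95%; both treat regions as independent. Widths are end minus start, with coordinates as deposited. Genes came from the RefSeq table of GRCm38.p6 (49997 genes), and lists took regions in or within 5 kb of a gene. Named regions were the called ones of largest change, the strongest per 5 Mb bin, the 5 widest, up to 3 of smallest p per list and 3 on either side of 96 Mb. Promoters to print were up to 6 by region signal; others were added after their values were seen. The members, the 10 lists and the alternatives were chosen with earlier results of these data known. Calculations used Python 3.11.15, numpy 2.4.6, pandas 2.3.3 and scipy 1.17.1, and functions were tested on simulated data.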

Additional observations from a re-analysis of the deposited data

How the results depend on the processing

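The median of the members relative to regions of like signal, 0.35, was 0.32 for regions with a log2 CPM of at least 4, 0.32 for regions at least 1000 bp wide and 0.33 as a mean weighted by CPM, each outside its 95% interval of 0.34 to 0.37. It was between 0.34 and 0.36 without matching on signal, with X and Y in the reference, with a limit at 90 Mb, for the whole chromosome and, chosen after seeing the data, without the called members or without the bin before 5 Mb. The share above the reference, 87.8%, became 96.6% with a log2 CPM of at least 4 and 94.3% with a width of at least 1000 bp. With a stricter FDR of 0.01 there were 17 calls instead of 40, with Holm adjustment 7, and with p-values adjusted over regions at least 1000 bp wide 58. All bins had a median above the reference with bins of 2 Mb (47 bins), with bins of 10 Mb (10 bins) and with a log2 CPM of at least 4 (20 bins). The share of members at a protein-coding gene, 23.5%, was 28.4% within 5 kb. Beyond what follows from each setting's own construction, the cause of these moves was not tested. No paired analysis was possible because the table has no values of single libraries, and for the same reason no replicate could be left out. Below a log2 CPM of 2 no member was called, and derived errors there had a median of 0.71, so changes of the size of the common shift were not detectable in single weak regions.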

Other observations

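Isolated members were slightly higher than crowded ones. Members with another region within 5 kb had a median log2 fold change of 0.30 (1350 members), those with the nearest at 5 to 20 kb 0.36 (591), at 20 to 100 kb 0.37 (502) and beyond 100 kb 0.42 (33). On the reference autosomes the same classes had -0.04, -0.01, 0.01 and 0.0004. Relative to regions of like signal, the members had 0.33, 0.36, 0.39 and 0.45. The order was not tested.

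Over 260 pairs of adjacent members with a log2 CPM of at least 4 and under 20 kb apart, the correlation of the deposited values, relative to like signal and with the chromosome median subtracted, was r = 0.02, against r = 0.26 over 5549 pairs on the reference autosomes. Both are descriptions across regions that share libraries, and regions are not independent replicates. The reference value pools 17 chromosomes and none is given singly. Whether the low r is particular to chromosome 16 is therefore not shown. The largest stretch without a region was 1147911 bp, from 39837830 to 40985741, reaching into Lsamp, and the median gap was 12145 bp.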
